A study of Mus musculus with 22 samples.

Results

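The p200 genes are a cluster of interferon-inducible genes on mouse chromosome 1, several of which encode sensors of DNA. The family was followed here through 7 members, Ifi202b, Ifi213, Ifi209, Ifi204, Ifi203, Ifi207 and Aim2, in CD11c+CD8α- dendritic cells (CD8α- DCs) sorted from the pancreas. Every probe set annotated to a member was taken, by its symbol, an older symbol or its Entrez record, which gave 14 of the 45037 probe sets tested. Of these, 9 name 1 member alone and 5 name a member together with other genes, and the 7 members are 7 of 18193 genes with a probe set of their own. The members were chosen by their difference between the strains at steady state, so that difference is described below without a test. The arrays came from female mice of 5 weeks, with 10 pancreases pooled for each array. Cells lysed directly after sorting (steady state) gave 3 NOD and 4 C57BL/6 arrays, cells cultured for 18 h with PBS gave 4 NOD and 4 C57BL/6 arrays, and cells cultured for 18 h with LPS, a bacterial cell wall component that activates DCs, gave 4 NOD and 3 C57BL/6 arrays. The NOD mouse develops autoimmune diabetes spontaneously, and mice of this age are pre-diabetic, while C57BL/6 mice are non-diabetic. The series text describes the cultures as another experiment, whereas the methods describe sorted cells divided between lysis and culture, so it is not settled whether cultured and steady state arrays share pools. The RNA was amplified before it was labelled, and the whole sorted population was measured in bulk.

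Proteins of this family bind double-stranded DNA through a HIN domain, and most carry a pyrin domain through which they recruit partners. Aim2 is the cytosolic DNA sensor that joins Pycard (ASC) and caspase-1 into an inflammasome, and Ifi204 is a mouse relative of human IFI16 that has been linked to STING and the induction of type I interferon. Ifi202b has HIN domains without a pyrin domain and has been described in mice as an antagonist of Aim2. In most cells type I interferon raises the transcription of these genes through response elements in their promoters, and DCs are both a source and a target of interferon.

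The members lay within 633.3 kb of chromosome 1 in the RefSeq annotation of GRCm38.p6, from Aim2 (chr1:173349547-173466040) over Ifi213 (chr1:173566280-173599348), Ifi209 (chr1:173630859-173647928), Ifi207 (chr1:173723424-173741831), Ifi204 (chr1:173747293-173767069) and Ifi203 (chr1:173920400-173942866) to Ifi202b (chr1:173962569-173982844). Promoters of 300 bases, 250 before and 50 after the start of transcription, were matched for 6 of the 7 members by symbol, with 7 promoters between them. They were searched on both strands for GAAA followed by any 2 bases and GAAA again, the core of the interferon-stimulated response element. These letters were found in 3.44% of 32851 mouse promoters of that length, in 3 of the members and in all 6 of the other family genes searched (Mndal, Ifi205, Ifi206, Ifi208, Ifi211 and Ifi214). The promoter of Ifi202b was searched and did not hold them. The matches in Ifi213, Ifi207 and Ifi203 are the same 10 letters, so matches in related genes may not be separate occurrences. The stretches around the matches are shown because they hold the interferon response letters near the starts of the genes whose levels are described next, with the matched letters in capitals, read along the strand of the gene from RefSeq GRCm38.p6, the sequence of C57BL/6J. Ifi209 is shown beside them because its promoter holds, in a similar flanking sequence, the same 10 letters with 1 substitution, G1T, counted from 1 at the 5′ end of the capitals with the Ifi213 base first. A further search, for TTC, any 3 bases and GAA, matched 8.3% of the promoters. In the family it matched Ifi202b alone, whose stretch is not shown. The NOD sequence was not examined, and a match is a description of letters and not a bound site. The promoter table counts from the start of 1 transcript, which for Ifi213, Ifi207 and Ifi203 lies inside the extent of the gene given above.
Ifi213 (chr1:173599311-173599370, minus strand, capitals from 73 bases before the start): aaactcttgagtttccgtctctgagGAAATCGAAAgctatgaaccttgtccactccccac
Ifi209 (chr1:173630755-173630814, plus strand, capitals from 79 bases before the start): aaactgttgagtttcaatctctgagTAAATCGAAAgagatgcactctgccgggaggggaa
Ifi207 (chr1:173741816-173741875, minus strand, capitals from 41 bases before the start): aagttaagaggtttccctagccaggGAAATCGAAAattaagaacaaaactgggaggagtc
Ifi203 (chr1:173942493-173942552, minus strand, capitals from 35 bases before the start): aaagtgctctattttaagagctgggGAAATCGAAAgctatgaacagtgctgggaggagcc

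Levels are given as log2 values of a probe set. The medians of the 22 arrays lay between 7.63 and 7.68, and their lower quartiles between 6.03 and 6.36. Levels of different probe sets are not compared with each other, since each has its own brightness. A gene with several probe sets of its own is led by the brightest one. Of the markers of the label, 11 of 11 CD8α- DC markers, among them Itgax (CD11c), Sirpa, Zbtb46 and H2-Ab1, lay above the lower quartile in all 6 groups. So did every measured marker on the lists of other cells, so this check does not set the label apart from them. The summed level of 8 markers of NK and innate lymphoid cells lay between 11.93 and 12.23 (log2 of the sum) in NOD and between 12.94 and 13.13 in C57BL/6 at steady state, with none of the 8 below the lower quartile, and 4 acinar markers summed to between 14.86 and 15.77 in NOD and between 15.24 and 15.71 in C57BL/6. The sums of 5 T cell markers were higher in NOD, between 10.58 and 10.91, against 10.10 to 10.46 in C57BL/6. Those of 6 plasmacytoid DC markers overlapped, between 13.37 and 13.65 in NOD and between 13.18 and 13.47 in C57BL/6. Among these, Siglech averaged 11.88 in NOD and 10.21 in C57BL/6, and Ly6d 7.96 and 8.56.

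At steady state, the strains differed at this locus in both directions. Ifi202b (1421551_s_at) was at 12.85, 12.61 and 12.67 on the 3 NOD arrays, against 8.95, 9.00, 8.91 and 8.73 on the 4 C57BL/6 arrays. All 3 NOD arrays thus lay above all 4 C57BL/6 arrays, with a difference of means of 3.81, which is 14.1-fold. A probe set that names Ifi202b together with an unplaced locus read the same way, with means of 12.33 in NOD and 7.20 in C57BL/6.

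Ifi213, also listed as Pydc4, ran the other way on both of its probe sets. The first (1437636_at) was at 6.17, 6.15 and 6.64 in NOD, against 11.03, 10.89, 11.01 and 11.14 in C57BL/6. The second, its lead by a small margin (1444405_at), was at 5.11, 5.04 and 5.55 in NOD, against 8.92, 8.95, 8.96 and 9.09 in C57BL/6. The groups did not overlap on either, with differences of -4.70 and -3.75. The NOD values of the lead lay below the lower quartile of their arrays and those of the other close to it, at the dim end of the range. In bulk RNA, fewer cells that express a gene and less RNA per cell cannot be told apart.

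Ifi209, also known as Pyhin1, was also lower in NOD, and more so on its dimmer probe set. That one (1435330_at) was at 7.73, 8.60 and 7.98 in NOD, against 11.85, 11.79, 11.72 and 11.83 in C57BL/6, a difference of -3.69. The lead (1435331_at) was at 9.84, 9.43 and 9.80 in NOD, against 11.25, 11.22, 11.25 and 11.16 in C57BL/6, a difference of -1.53. Both separate the strains, with sizes that differ by more than 2 log2 units between the probe sets of 1 gene.

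Ifi204 (1419603_at) was at 9.78, 8.91 and 9.50 in NOD, against 10.83, 10.81, 10.66 and 10.96 in C57BL/6, a difference of -1.41 with no overlap. The remaining members were closer between the strains. Ifi207 differed by -0.25, with NOD arrays between 11.04 and 11.43 just below the C57BL/6 arrays between 11.51 and 11.54. Aim2 was at 9.44, 9.58 and 9.57 in NOD, against 9.55, 9.58, 9.66 and 9.73 in C57BL/6, a difference of -0.10. Ifi203 was at 8.76, 9.05 and 8.70 in NOD, against 8.43, 8.80, 8.67 and 8.27 in C57BL/6, a difference of 0.29. For both the strains overlapped. In all, 7 of the 9 probe sets had groups that did not overlap, 1 above and 6 below, where 23.0% of all probe sets had such groups (12.3% above and 10.8% below). These values went into the choice of the members and are not a finding. As a further description of these arrays, the 25 measured antiviral interferon-stimulated genes all had lower means in NOD, by a median of -0.56, where the median over all genes was 0.03.

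**Figure D1:**
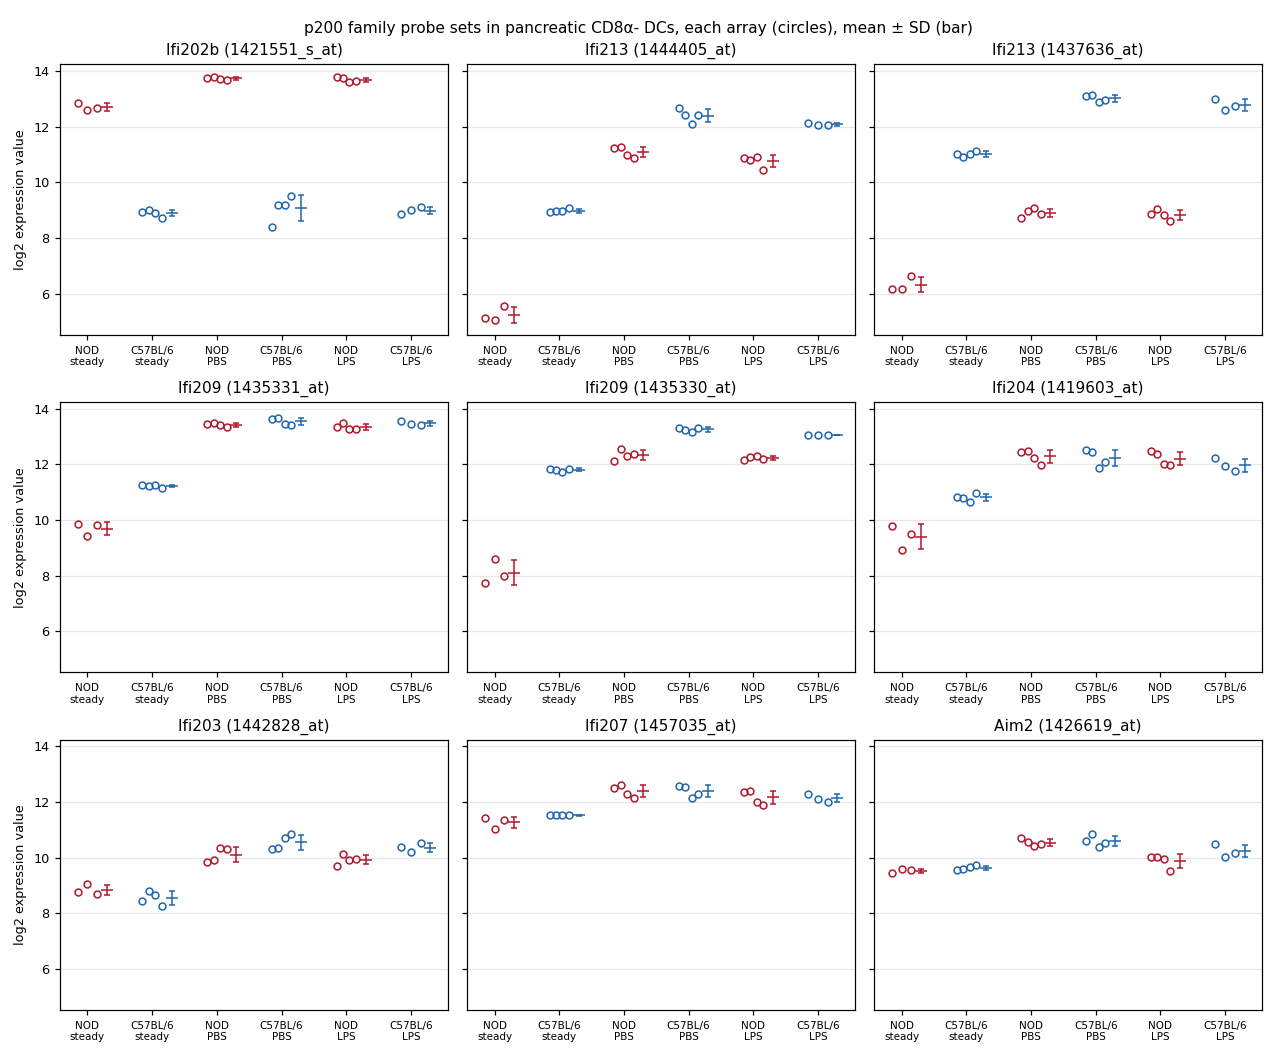
Log2 expression value (y axis) of the 9 probe sets that name 1 member, on each array (circles) with the group mean and SD (bar beside them), for NOD (red) and C57BL/6 (blue) at steady state and after 18 h with PBS or LPS (x axis). Ifi202b lies between 8.41 and 9.52 on all C57BL/6 arrays and between 12.61 and 13.80 on all NOD arrays, and the strains overlap in Ifi204 in both cultures but not at steady state.

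The cultured arrays were not in the steady state contrast with which the members were chosen, and there the strain difference was tested. Whether they share pools with the steady state arrays is not settled. If they do, these tests are not independent of that choice. The members were also chosen with earlier results of these data known, a limit on the p-values below. After PBS culture, Ifi202b remained higher in NOD and Ifi213 lower, with the other members closer together. Of the 9 probe sets, 1 was higher and 3 were lower in NOD at an adjusted p under 0.1 from limma, where 9.87% of all probe sets were called (4.78% higher and 5.09% lower). By lead probe set, 1 of 7 genes was higher and 1 lower, where 10.7% of all genes were called, and the median difference was -0.05, beside 0.04 over all genes.

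Ifi202b was at 13.75, 13.80, 13.71 and 13.68 on the NOD PBS arrays, against 8.41, 9.19, 9.19 and 9.52 on the C57BL/6 PBS arrays. The NOD arrays lay close together, and above every C57BL/6 array. The difference was 4.66, or 25.2-fold (95% interval 4.22 to 5.09, limma adjusted p = 1.03e-07). The probe set shared with the unplaced locus differed by 4.77 (adjusted p = 7.36e-09).

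Ifi213 was at 8.70, 8.97, 9.07 and 8.87 (1437636_at) in NOD PBS cultures, against 13.12, 13.15, 12.89 and 12.96 in C57BL/6 PBS cultures. This difference was -4.13 (95% interval -4.39 to -3.86, limma adjusted p = 6.25e-09). The lead was at 11.22, 11.27, 11.00 and 10.89 in NOD, against 12.65, 12.40, 12.09 and 12.41 in C57BL/6, a difference of -1.30 (95% interval -1.61 to -0.98, adjusted p = 2.32e-04). Both probe sets placed every NOD array below every C57BL/6 array, but with 17.5-fold and 2.45-fold differences. Whether the NOD sequence matches the probes of Ifi213 or of Ifi209 was not examined.

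For Ifi209, the dimmer probe set was at 12.12, 12.54, 12.30 and 12.36 in NOD, against 13.32, 13.23, 13.16 and 13.31 in C57BL/6. It was called lower in NOD, by -0.93 (95% interval -1.18 to -0.67, limma adjusted p = 5.86e-04). The lead was at 13.43, 13.49, 13.42 and 13.33 in NOD, against 13.63, 13.66, 13.46 and 13.41 in C57BL/6, and was not called (-0.12, 95% interval -0.36 to 0.12, adjusted p = 0.622). Averaged over both probe sets Ifi209 was called lower in NOD, by -0.52 (adjusted p = 0.0038), so its call turns on the probe set that is read.

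Ifi204 was at 12.45, 12.48, 12.23 and 11.98 in NOD PBS cultures, against 12.51, 12.44, 11.87 and 12.09 in C57BL/6 PBS cultures. The strains overlapped throughout, with a difference of 0.05 (95% interval -0.32 to 0.42, limma adjusted p = 0.911). Ifi207 was at 12.52, 12.60, 12.27 and 12.14 in NOD, against 12.58, 12.54, 12.13 and 12.27 in C57BL/6 (difference 0.0032, interval -0.32 to 0.32). Aim2 was at 10.70, 10.56, 10.42 and 10.49 in NOD, against 10.61, 10.83, 10.38 and 10.53 in C57BL/6 (difference -0.05, interval -0.32 to 0.23). Neither was called, and in both the strains overlapped.

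Ifi203 was at 9.86, 9.91, 10.36 and 10.30 in NOD PBS cultures, against 10.32, 10.34, 10.71 and 10.85 in C57BL/6 PBS cultures. Each replicate number was lower in NOD, although the groups overlapped. Ifi203 differed by -0.45 (interval -0.81 to -0.09, adjusted p = 0.152), which was called when arrays of equal replicate number were blocked (adjusted p = 0.0214) and in 1 fit of all 22 arrays (adjusted p = 0.0598).

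After LPS culture, Ifi202b was again higher in NOD and Ifi213 lower on both of its probe sets, and Ifi209 was lower on 1 of its 2. Of the 9 probe sets, 1 was higher and 4 were lower in NOD, where 9.91% of all probe sets were called (5.03% higher and 4.88% lower). By lead probe set, 1 of 7 genes was higher and 2 were lower, where 10.6% of all genes were called. Ifi202b was at 13.77, 13.73, 13.61 and 13.65 on the NOD LPS arrays, against 8.85, 8.99 and 9.12 on the C57BL/6 LPS arrays. The difference was 4.71, or 26.1-fold (95% interval 4.45 to 4.97, limma adjusted p = 2.19e-08).

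Ifi213 was at 8.87, 9.06, 8.83 and 8.62 in NOD LPS cultures, against 13.01, 12.60 and 12.74 in C57BL/6 LPS cultures (1437636_at). The lead was at 10.87, 10.81, 10.93 and 10.46 in NOD, against 12.15, 12.06 and 12.04 in C57BL/6. Again no array of 1 strain reached the other, and the differences were -3.94 (interval -4.26 to -3.62, limma adjusted p = 4.01e-07) and -1.32 (interval -1.62 to -1.02, adjusted p = 3.54e-04).

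Ifi209 was at 12.16, 12.26, 12.29 and 12.19 on its dimmer probe set in NOD LPS cultures, against 13.07, 13.06 and 13.07 in C57BL/6 LPS cultures (difference -0.84, interval -1.08 to -0.61, limma adjusted p = 0.00118). Its lead differed by -0.13 (adjusted p = 0.617). Ifi203 passed the threshold narrowly, with 9.70, 10.12, 9.91 and 9.97 in NOD, against 10.37, 10.20 and 10.51 in C57BL/6 (difference -0.44, limma adjusted p = 0.0949). It did not pass under the replicate block (-0.36, adjusted p = 0.132), nor without any 1 of 6 of the 7 arrays (adjusted p between 0.104 and 0.254).

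Aim2 was at 10.02, 10.02, 9.96 and 9.53 in NOD LPS cultures, against 10.47, 10.04 and 10.17 in C57BL/6 LPS cultures. It differed by -0.34 (interval -0.70 to 0.01, adjusted p = 0.287), with all NOD arrays below all C57BL/6 arrays. Ifi204 was at 12.47, 12.36, 12.02 and 11.98 in NOD, against 12.22, 11.93 and 11.76 in C57BL/6 (difference 0.23, adjusted p = 0.518). Ifi207 was at 12.36, 12.38, 12.00 and 11.90 in NOD, against 12.29, 12.12 and 11.99 in C57BL/6 (difference 0.03, adjusted p = 0.962). In both the strains overlapped.

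Cell markers also differed between the strains in culture, where 10.7% of all genes were called with PBS and 10.6% with LPS. Of 8 NK and innate lymphoid markers, 4 were lower and 0 higher in NOD in both PBS and LPS cultures, with a summed level between 12.69 and 13.69 in NOD and between 13.46 and 14.21 in C57BL/6 with PBS, and between 12.29 and 13.39 in NOD and between 13.37 and 14.03 in C57BL/6 with LPS, and none of the 8 below the lower quartile. Of 4 B cell markers, 2 were lower in NOD with PBS and 1 with LPS, with sums between 10.19 and 11.34 in NOD and between 11.32 and 12.30 in C57BL/6 with PBS. With LPS these sums overlapped, between 10.63 and 12.46 in NOD and between 11.91 and 12.72 in C57BL/6. Of the 11 CD8α- DC markers, 4 were lower and 1 higher in NOD with PBS, with sums between 15.44 and 15.72 in NOD and between 16.02 and 16.17 in C57BL/6, and 6 were lower and 0 higher with LPS. Other sums were higher in NOD. Those of 6 CD8α+ or CD103+ DC markers lay between 13.82 and 13.92 in NOD and between 13.30 and 13.59 in C57BL/6 with PBS. With LPS they lay between 13.45 and 13.62 in NOD and between 13.13 and 13.17 in C57BL/6. Sums of 10 macrophage or monocyte markers were also above C57BL/6 in both cultures, although 1 marker was higher and 3 were lower in each. The part of these cells in the family's differences was not tested.

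**Figure D2:**
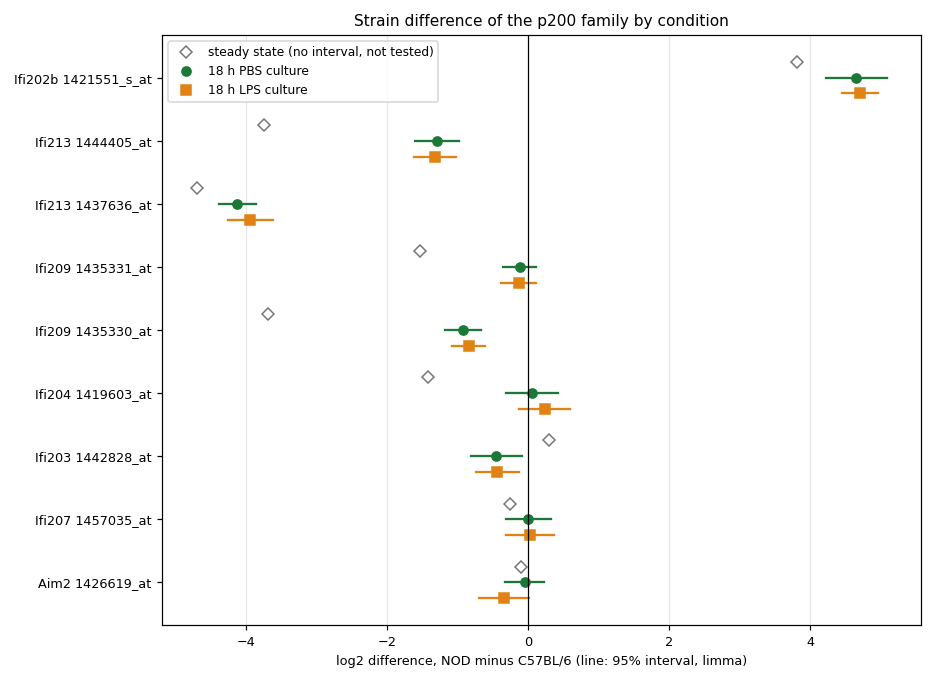
Log2 difference NOD minus C57BL/6 (x axis) for each member probe set (y axis) at steady state (open diamonds, a description with no interval), after PBS culture (green) and after LPS culture (orange), with the 95% interval from limma. Ifi202b lies at 3.81, 4.66 and 4.71, and Ifi213 at -4.70, -4.13 and -3.94 by 1437636_at and at -3.75, -1.30 and -1.32 by its lead, while Ifi204 lies at -1.41 at steady state and near 0 in both cultures.

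Read across the 3 conditions, the members fell into different patterns. Ifi202b lay between 3.81 and 4.71 and Ifi213 by 1437636_at between -4.70 and -3.94 in all 3, whereas the Ifi213 lead was at -3.75 at steady state, -1.30 with PBS and -1.32 with LPS. The difference of Ifi204 was -1.41 at steady state, 0.05 with PBS and 0.23 with LPS, and that of the Ifi209 lead was -1.53, -0.12 and -0.13. The dimmer Ifi209 probe set was at -3.69, -0.93 and -0.84, and was called lower in both cultures. Whether the strain difference itself changed with culture was not tested, because the steady state contrast chose the members.

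The probe sets that name several family genes were mostly closer between the strains. Of the 3 that name Ifi203 with its pseudogene and unplaced loci, 1 was called higher in NOD after PBS culture (0.53, limma adjusted p = 0.0219) and 2 after LPS culture (0.48 and 0.61, adjusted p = 0.0326 and 0.0187), opposite in sign to the probe set that names Ifi203 alone. One that names Ifi204 with Mndal, Ifi211 and Ifi205 was not called (-0.24 with PBS and -0.14 with LPS). Outside the members, Mndal, a further family gene between Ifi204 and Ifi203, was not called on either of its probe sets (-0.37 and -0.19 with PBS, -0.42 and -0.21 with LPS), and a probe set of Ifi211 and Ifi205 was lower in NOD by -0.53 with PBS (adjusted p = 0.0222) and by -0.57 with LPS (adjusted p = 0.0316). Near-identical family genes share sequence, so signal of 1 gene can reach the probes of another.

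Genes on either side of the cluster were measured as well. Of 6 measured genes that start within 500 kb of the members (Apcs, Olfr16, Fcer1a, Ackr1, Cadm3 and Mptx1), 0 were called in either culture by limma, and 0 had an unadjusted p under 0.05. Of these, Apcs, Fcer1a, Mptx1 and Olfr16 lay below or near the lower quartile of the arrays, where a difference may not be measurable. Only Mptx1 lies beyond Ifi202b, and the brighter genes, Ackr1 and Cadm3, both lie on the Aim2 side. The side of Ifi202b was therefore not assessed by a brighter neighbour.

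**Figure D3:**
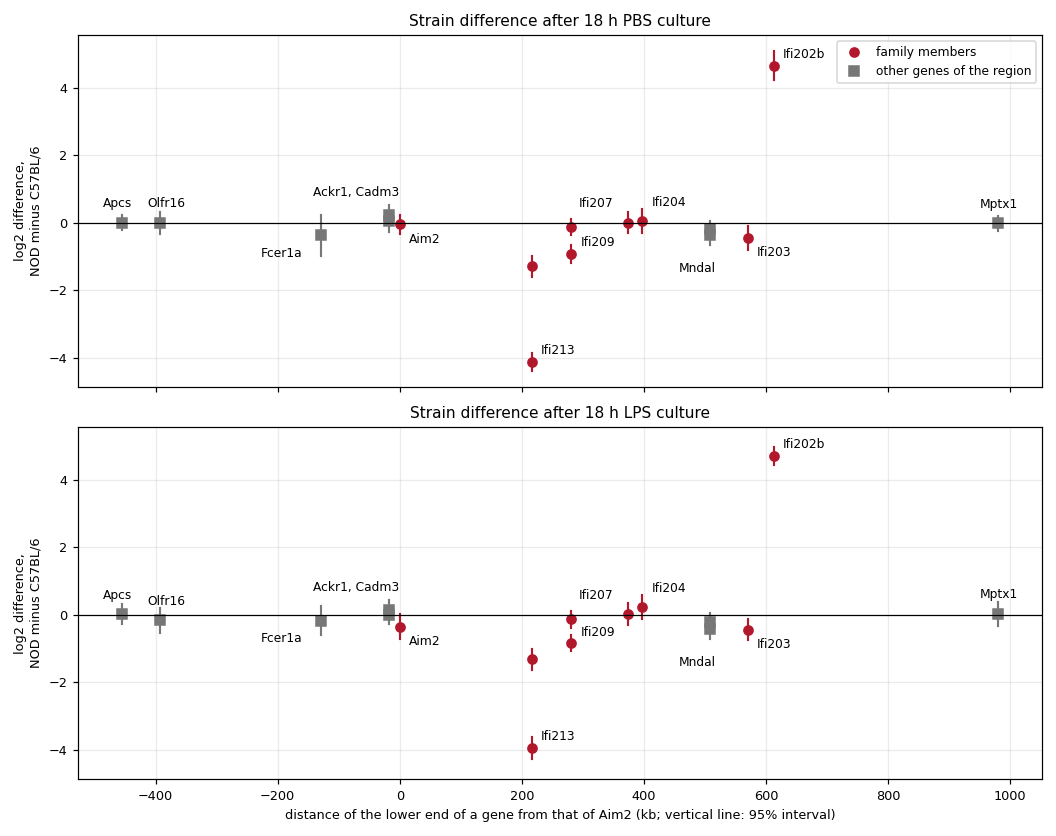
Log2 difference NOD minus C57BL/6 in PBS culture (upper panel) and LPS culture (lower panel) for family members (red circles, 1 per probe set) and other genes of the region (grey squares), by the distance in kb of each gene's lower end from that of Aim2, with 95% intervals from limma. The 8 probe sets of other genes, which include those of the family gene Mndal, lie between -0.42 and 0.24, and the members between -4.13 and 4.71. Probe sets that name several genes are not drawn, among them that of Ifi211 and Ifi205 (-0.53 with PBS and -0.57 with LPS).

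Every member had higher levels in PBS culture than at steady state in at least 1 strain. These comparisons use the steady state arrays with which the members were chosen, so the members' values, counts and intervals here are a description and support nothing. After 18 h with PBS, 9 of 9 member probe sets were higher than at steady state in NOD, where 37.8% of all probe sets were called higher and 67.1% in either direction. In C57BL/6, 8 of 9 were higher, where 42.1% were called higher and 72.7% in either direction. By lead probe set, 7 of 7 genes were higher in NOD and 6 of 7 in C57BL/6, where 41.6% and 44.6% of all genes were higher and 71.6% and 76.9% were called in either direction. The median difference over the 7 leads was 1.27 in NOD and 1.42 in C57BL/6, beside 0.16 and 0.17 over all genes. Culture and experiment cannot be told apart.

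The Ifi213 lead averaged 11.09 in NOD PBS cultures and 5.23 in NOD at steady state, a difference of 5.86. The steady state values lay below the lower quartile of their arrays, so no fold is given. In C57BL/6 the lead averaged 12.39 with PBS and 8.98 at steady state, a difference of 3.41. The other probe set was higher by 2.58 in NOD and 2.01 in C57BL/6.

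Ifi209 was higher after culture by 3.73 on its lead and 4.22 on its other probe set in NOD, and by 2.32 and 1.46 in C57BL/6. Ifi204 was higher by 2.88 in NOD and by 1.42 in C57BL/6, and the strains overlapped after culture. Ifi203 was higher by 1.27 in NOD and 2.01 in C57BL/6. Ifi207 was higher by 1.11 and 0.86, and Aim2 by 1.01 and 0.96, in NOD and in C57BL/6.

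Ifi202b was the exception in C57BL/6. It was higher after culture by 1.02 in NOD (95% interval from limma 0.77 to 1.28), whereas in C57BL/6 the difference was 0.18 and was not called (interval -0.24 to 0.61). The C57BL/6 PBS arrays spread here between 8.41 and 9.52, around C57BL/6 steady state arrays between 8.73 and 9.00. Without the lowest, C57BL/6 PBS replicate 1, the difference was 0.40 and was called. With all arrays the probe set shared with the unplaced locus was called as well (1.30). These calls are a description too, as the members were chosen with the steady state arrays. The difference between the strains in this response was not tested.

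**Figure D4:**
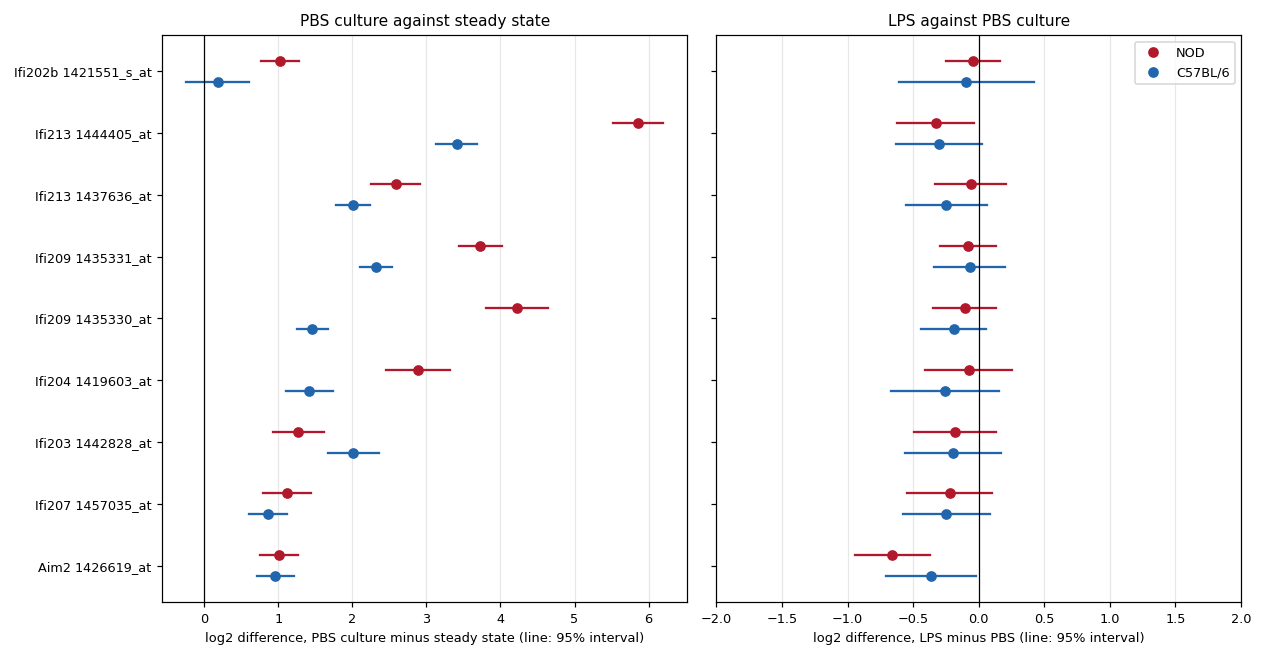
Left, log2 difference PBS culture minus steady state, and right, LPS minus PBS culture (x axes), for each member probe set (y axis) in NOD (red) and C57BL/6 (blue), with 95% intervals from limma. On the left, 9 of 9 NOD intervals and 8 of 9 C57BL/6 intervals lie above 0. On the right, the interval of Aim2 lies below 0 in NOD (-0.95 to -0.37) and in C57BL/6 (-0.70 to -0.02). That of the Ifi213 lead in NOD does so too (-0.62 to -0.03), and of these only Aim2 in NOD was called.

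Interferon-stimulated genes also rose in culture. Their counts stand beside 41.6% of all genes higher and 71.6% called in either direction in NOD. In C57BL/6 these shares were 44.6% and 76.9%. Of 25 antiviral interferon-stimulated genes, 25 were higher after PBS culture than at steady state in NOD and 25 in C57BL/6 (medians 3.53 and 2.97, beside 0.16 and 0.17 over all genes). Cmpk2, a nucleotide kinase of mitochondria, rose by 5.70 in NOD and 4.89 in C57BL/6, and Cxcl10, a chemokine that attracts T cells, by 5.52 and 4.91. Among 15 interferons, receptors and signalling genes, read beside the same shares, 11 were higher and 2 lower in NOD, and 10 were higher and 2 lower in C57BL/6. Ifnb1, which encodes interferon β, averaged 9.12 in NOD PBS cultures and 5.38 in NOD at steady state, and rose by 3.74, beside 4.47 in C57BL/6. Its NOD steady state mean lay below the lower quartile of those arrays, at the dim end, where the size of a rise is uncertain. Usp18, a brake on interferon receptor signalling, rose by 4.78 and 3.53, and Stat2 by 3.21 and 3.33. Ifngr1, a chain of the interferon γ receptor, fell by 2.41 in NOD.

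DNA sensors outside the p200 family, and the partners and enzymes that follow, are to be read beside the genes called in culture over all genes, 41.6% higher and 71.6% in either direction in NOD, and 44.6% and 76.9% in C57BL/6. Of 20 measured genes of other DNA sensors and the STING arm, 9 were higher and 9 lower in NOD cultures (median -0.01), and 6 were higher and 9 lower in C57BL/6 cultures (median -0.14). Irf7, the interferon-inducible regulator of type I interferon genes, rose by 5.08 in NOD and 4.38 in C57BL/6, and Zbp1, a sensor of nucleic acids in the Z form, by 3.29 and 2.75. Sting1 differed by -0.50 in NOD and -0.55 in C57BL/6, and Xrcc6, a DNA repair protein that binds DNA ends, by -1.71 and -1.99, all lower after culture. Of 8 genes on a list of Aim2 inflammasome partners, which also holds the separate sensor Nlrp3, 6 were higher and 1 lower in each strain. The lower one was Pycard, the adaptor that Aim2 binds, with differences of -1.67 in NOD and -1.17 in C57BL/6, while Casp4 rose by 2.68 and 2.33 and Casp1 by 1.66 and 1.43. Of 7 nucleic acid clearance enzymes, 4 were higher and 3 lower in each strain, with Adar, an RNA editing enzyme, 2.48 and 2.10 higher and Dnase2a, the lysosomal DNase, at differences of -3.02 and -3.10.

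Cell markers were also called in culture, where 71.6% of all genes were called in either direction in NOD and 76.9% in C57BL/6. Of the 11 CD8α- DC markers, 0 were higher and 7 lower in NOD, and 3 were higher and 6 lower in C57BL/6. Of 4 acinar markers, 4 were lower after culture in each strain, with a summed level between 11.24 and 14.94 in NOD PBS cultures and between 14.86 and 15.77 in NOD at steady state, and between 11.10 and 14.50 in C57BL/6 PBS cultures and between 15.24 and 15.71 in C57BL/6 at steady state. Itgax was lower after culture, by -1.96 in NOD and -2.29 in C57BL/6, and so was Cd209a, a lectin of DCs, by -4.48 and -4.88. The part of these marker differences in the culture differences of the family was not tested.

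Between the strains in PBS culture, the counts of these lists stand beside 10.7% called over all genes. Ifng, the gene of interferon γ, averaged 7.77 in NOD and 9.56 in C57BL/6, a difference of -1.79 (limma adjusted p = 0.00221), and Ifnb1 averaged 9.12 in NOD and 9.82 in C57BL/6, a difference of -0.70 (adjusted p = 0.0226). They were the 2 genes called among the 15 genes of interferons, their receptors and signalling. Of 25 interferon-stimulated genes, 2 were higher in NOD, Mx2 by 0.63 and Parp14 by 0.37, and 0 lower (median 0.09, beside 0.04 over all genes). Of the 20 other sensors, 2 were higher (Nlrc3, 0.79, and Tbk1, 0.50) and 3 lower (Tlr9, -0.72, Nlrx1, -0.57, and Xrcc6, -0.34). Il18 (0.76) and Nlrp3 (0.69) were higher among the 8 genes of the inflammasome list, and Rnaseh2c (-1.38) was lower among the 7 clearance enzymes.

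After LPS culture, Ifng (-1.78) and Ifnb1 (-0.76) were again the 2 genes called among the 15 of interferons, receptors and signalling. Both were lower in NOD (limma adjusted p = 0.016 and 0.0113), where 10.6% of all genes were called. Of the 25 interferon-stimulated genes, 3 were higher (Mx2, 0.62, Ifih1, 0.41, and Parp14, 0.38). Of the 20 other sensors, 3 were higher, among them Nlrc3 (1.11) and Tbk1 (0.57), and 3 lower, among them Tlr9 (-0.94) and Xrcc6 (-0.78). Il18 (0.79), Nlrp3 (0.64) and Il1b (0.39) were higher on the inflammasome list and Pycard (-0.71) was lower. Rnaseh2c (-1.45) and Dnase1l3 (-0.90) were lower among the clearance enzymes.

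LPS was compared with PBS culture in each strain, and 1 member passed the test in 1 of them. In NOD, 1 of 9 member probe sets was called, where 3.76% of all probe sets were (2.08% lower). This was Aim2, also 1 of 7 genes by lead probe set, where 4.40% of all genes were called. It was at 10.02, 10.02, 9.96 and 9.53 with LPS, against 10.70, 10.56, 10.42 and 10.49 with PBS. All LPS arrays lay below all PBS arrays, and the difference was -0.66 (95% interval -0.95 to -0.37, limma adjusted p = 0.0252). In C57BL/6, 0 of 9 were called by limma and 1 had an unadjusted p under 0.05, where 1.48% of all probe sets and 1.81% of all genes were called. There Aim2 was at 10.47, 10.04 and 10.17 with LPS, against 10.61, 10.83, 10.38 and 10.53 with PBS, a difference of -0.36 with overlap (interval -0.70 to -0.02, adjusted p = 0.432). The LPS effect on Aim2 differed between the strains by -0.30 (interval -0.72 to 0.13, adjusted p = 1.00), and 0 of the 9 probe sets passed this limma test of the difference or had an unadjusted p under 0.05, where 0.0244% of all probe sets and 0.0220% of all genes passed.

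The other members were not called. In NOD the LPS difference of the Ifi213 lead was -0.33 (interval -0.62 to -0.03, limma adjusted p = 0.313) and that of Ifi202b was -0.04 (interval -0.25 to 0.17). In C57BL/6 they were -0.30 (interval -0.63 to 0.02) and -0.09 (interval -0.61 to 0.42), and the interval of Ifi204 ran from -0.67 to 0.15. The median over the 7 leads was -0.18 in NOD and -0.25 in C57BL/6, beside -0.0041 and 0.02 over all genes. The same cells responded to LPS elsewhere, as Il1b rose by 1.70 in NOD (limma adjusted p = 0.00223) and 1.90 in C57BL/6 (adjusted p = 0.00633), and Nlrp3, another inflammasome sensor, by 1.00 and 1.04. In NOD, Ikbke rose by 0.65, while Tlr9, the endosomal DNA receptor, and Dnase1l3, a secreted DNase, were lower, at -0.84 and -0.68. Of the 25 interferon-stimulated genes, 0 were called by limma in either strain, and 0 had an unadjusted p under 0.05.

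Last, the profile of each member over the 6 group means was set against that of all other genes, by the root mean square difference after both were centred. This difference can be larger for a profile of wide span. The group means of the leads spanned 7.15 log2 units for Ifi213, 4.84 for Ifi202b, 3.85 for Ifi209 and 2.88 for Ifi204. They spanned 2.01 for Ifi203, 1.11 for Ifi207 and 1.06 for Aim2. The 3 genes nearest to Ifi202b were BC018473, Unc13b and Zfp979, at 0.66, 0.90 and 0.92 log2 units. Those nearest to Ifi213 were Gzmb (0.78), Ifit2 (0.85) and Fgfbp3 (0.87). Gzmb is 1 of the 8 NK and innate lymphoid markers summed above. After PBS culture 3 of those 8 were higher and 2 lower than at steady state in each strain, so that list did not move together. The others lay closer to their neighbours, Ifi204 to Gm4951 (0.11), Bid (0.14) and Irgm2 (0.17), Ifi209 to Stx11 (0.14), Ell2 (0.15) and Slamf7 (0.15), and Ifi203 to Tiparp (0.09), Ptms (0.09) and Wbp2 (0.11). Ifi207 was nearest to Id2 (0.04), Rbm43 (0.06) and Clip1 (0.06), and Aim2 to Ccnj (0.07), Pld3 (0.10) and Clvs1 (0.10). These are likenesses over 6 means, with the steady state means that chose the members among them, and carry no test.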

How the data were processed

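The authors hybridised amplified RNA to Affymetrix whole-genome mouse arrays. They imported the scans into BRB-ArrayTools and applied RMA, so that the table they deposited holds 1 log2 value for a probe set and array. Tool versions are not stated in the sources available to this work. Control probe sets (64 of 45101) were left out. Gene names came from the platform annotation, updated by Entrez record (99.4% matched), and 0 sample columns were left unused. Replicates are separate pools, and 3 or 4 arrays in a group limit the precision. For every contrast, limma 3.58.1 (R 4.3.3) was run on only the arrays concerned, with no filter on dim probe sets. Calls were made below 0.1 after Benjamini-Hochberg adjustment across all 45037 probe sets. The methods name a multivariate permutation test instead, which was not run here. Intervals are at 95% and come from these fits. The code was tested on simulated arrays.

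The members and the gene lists were chosen with earlier results of these data known. Named are all member probe sets, other family genes, up to 4 called genes per list with the largest change, genes within 500 kb and the 3 genes of the most similar profile. Xrcc6 with PBS and Sting1 were named after their values were seen. The response element was searched in RefSeq promoters of GRCm38.p6, since the deposited files hold no positions.

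Equal replicate numbers were taken as pairs where the residuals of all same-numbered arrays correlated above 0.1. They did between LPS and PBS (0.241 to 0.487 in NOD, 0.259 to 0.423 in C57BL/6) and between the strains with PBS (0.137 to 0.32) and LPS (0.114 to 0.345), but not between culture and steady state (-0.0328 to 0.277, 2 shared numbers per strain). The main fits are unpaired, and the fit with the number as a block is an alternative.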

Additional observations from a re-analysis of the deposited data

Results flagged for a closer look

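Of 56 groups of 4 arrays examined over the 14 probe sets annotated to members, 1 held an array far from the other 3, where chance flags about 1 in 20 groups. Aim2 on NOD LPS replicate 4 was at 9.526, with the other NOD LPS arrays between 9.964 and 10.02, so that the gap to its nearest neighbour took 0.882 of the range of the group. Without this array the LPS effect on Aim2 in NOD was still called.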

How the results depend on the processing

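The count of member genes called by lead probe set stayed within 1.5 times its value under every alternative run for the 7 tested comparisons. Among these, the counts for culture against steady state remain a description, since the members were chosen with the steady state arrays. The alternatives were an adjusted p of 0.05, no probe sets of the dimmer 50%, all 22 arrays in 1 fit, arrays centred on their medians, limma's trend and robust options, the replicate block, gene means in place of lead probe sets, and each array left out. With 1 array left out the count was 2 for the strains with PBS, 2 to 3 with LPS, 7 for culture in NOD and 6 to 7 in C57BL/6, 1 for LPS in NOD and 0 in C57BL/6, and 7 to 8 member probe sets did not overlap at steady state. No called difference of a member changed sign. Calls changed for Ifi203 between the strains, which with LPS was also lost at 0.05 and with all 22 arrays in 1 fit (limma adjusted p = 0.101). They changed for Ifi209, whose gene mean was called with LPS too (-0.49, limma adjusted p = 0.00788), and for Ifi202b in C57BL/6 culture without C57BL/6 PBS replicate 1 (0.40). The cause was not tested. With the replicate block, 3 member genes were called between the strains with PBS and 2 with LPS, and no call of a member other than Ifi203 changed. Over all probe sets the block called 6826 between the strains with PBS, beside 4447 without it, 4282 for LPS in NOD, beside 1693, and 18 for the interaction, beside 11. The 1 fit of all arrays called 2030 for LPS in C57BL/6, beside 665 on its own arrays and 84 without C57BL/6 PBS replicate 1.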
